A study of Mus musculus with 24 samples.

Results

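The arrays described here are the 6 of untransduced mouse embryonic fibroblasts (MEFs), out of 24 in the series. They comprise the 3 arrays titled as controls of batch 2 and the 3 titled as controls of batch 1, and they were chosen by the batch and replicate number in their titles. MEFs are the connective tissue cells that grow out of dissociated embryos and divide in culture for a limited number of passages. All 6 samples were fibroblasts of Myod-/-/Myf5-/- mice, in which both genes that commit cells to skeletal muscle are disrupted, grown in DMEM with fetal bovine serum and given no virus. Batch 2 and batch 1 therefore share genotype, medium and treatment in the labels and differ only in batch number. The sources used here do not say what a batch number stands for (a culture, an RNA extraction or a hybridization), nor the age and strain of the embryos, the passage or the harvest time of untransduced cells. A difference between the cells and a difference in how they were handled cannot be told apart. Nor do the labels call the 3 replicates of a batch separate cultures. The p-values then reflect only how far replicate samples spread, here over 12 MEF arrays that include MEFs given a virus. That spread can be technical. The rest of the series holds MEFs with a lentivirus carrying NeuroD2 in batch 2 or MyoD in batch 1, and P19 cells, a mouse embryonal carcinoma line.

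Proliferating cells copy their DNA in S phase with a set of replication factors that E2F proteins switch on. They then divide with mitotic kinases, motors and checkpoint proteins whose transcripts peak in G2 and M phase, and both sets decline when fibroblasts leave the cycle. Fibroblasts also build the extracellular matrix from collagens, elastic fibres and proteoglycans, and they remodel it with matrix metalloproteases, many of which respond to the transcription factor AP-1 and to inflammatory signals. The same signals, acting through NF-kB, STAT3 and C/EBP factors, make fibroblasts secrete interleukin 6, chemokines and acute-phase proteins.

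Signal is on the log2 scale as deposited, with 1 probe set per gene, so values of different genes are not set against each other. Differences are batch 2 minus batch 1. Upper quartiles of the 6 arrays lay between 8.67 and 8.77, and the correlation across genes was 0.9931 to 0.9978 among the batch 2 arrays, 0.9981 to 0.9983 among the batch 1 arrays and 0.9876 to 0.9946 between the batches. Batch 2 replicate 3 stood somewhat apart, with an array weight of 0.227 where the batch 2 replicates 1 and 2 had 0.542 and 3.69, so counts are also given without it. Measures of RNA and labelling moved with the batch. The 3' minus 5' difference of the pyruvate carboxylase control probe sets was 1.18 to 1.36 on the batch 2 arrays and 1.98 to 2.09 on the batch 1 arrays, and that of beta-actin was 0.207 to 0.221 and 0.335 to 0.387. The poly-A spike-in Lys read 6.32 to 6.52 in batch 2 and 5.63 to 5.83 in batch 1, and the 18S rRNA probe set 7.23 to 7.53 and 6.73 to 6.77. The part of these measures in the results was not tested.

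A gene was called where its batch difference passed an adjusted p of 0.05 in limma's moderated test, fitted over the 12 MEF arrays and adjusted by Benjamini-Hochberg over 18193 genes. In all, 4920 genes (27.0%) were called, 1956 higher (10.8%) and 2964 lower (16.3%) in batch 2. The median size of a called difference was 1.25-fold, and 132 called genes (0.726%) differed at least 2-fold, of which 47 were higher (0.258%) and 85 lower (0.467%). The 3 arrays of batch 2 did not overlap the 3 of batch 1 for 39.9% of all genes. Calls were thus common, and the counts that follow are read against these shares. The median difference of all genes was 0.01. Without batch 2 replicate 3, 1660 genes were called higher and 2404 lower.

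Transcripts of mitosis were lower in batch 2. Of 53 measured genes of G2 and M phase, 49 fell (92.5%, against 16.3% of all genes), 24 of them at least 2-fold (0.467% of all genes), and 0 rose (0 also at an unadjusted limma p under 0.05). Their median difference was -0.96, and in 50 of the 53 all 3 batch 2 arrays lay below all 3 batch 1 arrays, which was so for 22.7% of all genes. The 4 genes that were not called were Kif4, Cdc25b, Foxm1 and Cdc25c, at -0.63, -0.28, -0.14 and 0.03. They were listed after their values were seen. In bulk RNA, fewer dividing cells and less RNA per dividing cell cannot be told apart.

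Bub1, a kinase of the spindle assembly checkpoint, read 5.95, 6.03 and 4.79 on the batch 2 arrays, against 7.52, 7.57 and 7.58 on the batch 1 arrays. It had the largest fall of all genes, 3.91-fold (-1.97 ± 0.25 SE, limma adjusted p = 0.000225). Batch 1 was tight while batch 2 was spread, and replicate 3 of batch 2 was the lowest by more than 1 log2 unit, yet the groups did not overlap. For the 12 largest rises and 12 largest falls, Bub1 among them, no overlap was a condition of being named. Mki67, whose protein coats mitotic chromosomes and is the standard stain for cycling cells, read 6.01, 5.94 and 6.04 in batch 2 and 7.69, 7.78 and 7.56 in batch 1. Here replicate 3 of batch 2 sat with the other two, and the difference was -1.68 ± 0.17 SE (3.21-fold lower, limma adjusted p = 6.13e-05). Cdk1, the kinase that drives entry into mitosis, read 8.99, 8.95 and 8.83 in batch 2 and 9.59, 9.67 and 9.64 in batch 1, a smaller fall of 1.64-fold (-0.71 ± 0.06 SE, limma adjusted p = 2.25e-05). Cdc20, which activates the anaphase-promoting complex, read 7.72, 8.02 and 7.34 in batch 2 and 9.10, 9.08 and 9.21 in batch 1 (-1.44 ± 0.18 SE); of its other probe sets 1 was called lower at -1.17 and 1 was not called at -0.14.

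The kinetochore protein gene Cenpf fell by 1.82, with 5.43, 4.68 and 4.22 in batch 2 against 6.62, 6.49 and 6.68 in batch 1, all below the median signal of 7.03. Genes of the cytokinetic furrow and spindle fell alike. Anln, an actin-binding protein of the contractile ring, read 7.76, 7.50 and 6.79 in batch 2 and 8.99, 8.96 and 9.07 in batch 1. Ect2, the exchange factor that activates RhoA for cytokinesis, Aspm, a spindle pole protein, and Nusap1, a microtubule-binding protein, had differences of -1.55, -1.55 and -1.48. Cdca5, known as sororin and needed for cohesion of sister chromatids, and the mitotic kinase Pbk fell by 1.69 and 1.66. Batch 2 replicate 3 was the lowest of its group in 40 of the 53 genes (75.5%), against 40.9% of all genes. Without it, 48 of the 53 were called lower.

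Many promoters of this class carry a CCAAT box, bound by NF-Y, and a CHR element, bound by the DREAM and MuvB complexes that repress and activate them. The 250 bases upstream of the gene starts of Bub1 and Mki67 are shown because these genes had the largest fall and the marker role, with CCAAT (either strand) and TTTGAA, a core form of the CHR, in capitals. They are RefSeq sequence of build GRCm38.p6, written 5' to 3' on the gene's strand, from chr2:127831860-127832109 (minus strand) and chr7:135716380-135716629 (minus strand).
Bub1: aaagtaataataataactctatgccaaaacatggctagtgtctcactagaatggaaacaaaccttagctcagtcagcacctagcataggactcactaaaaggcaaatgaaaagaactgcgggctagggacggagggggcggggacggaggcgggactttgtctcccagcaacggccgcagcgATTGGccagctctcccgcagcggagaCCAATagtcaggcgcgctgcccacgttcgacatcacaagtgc
Mki67: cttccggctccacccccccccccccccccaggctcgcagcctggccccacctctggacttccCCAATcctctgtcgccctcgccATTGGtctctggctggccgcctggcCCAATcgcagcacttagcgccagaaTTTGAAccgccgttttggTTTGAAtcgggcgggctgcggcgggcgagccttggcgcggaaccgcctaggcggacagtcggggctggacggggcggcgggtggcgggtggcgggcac
In Bub1, CCAAT matched at bases -68 to -64 and -42 to -38 from the gene start, and TTTGAA was not matched in this window. In Mki67, CCAAT matched at -188 to -184, -166 to -162 and -141 to -137, and TTTGAA at -116 to -111 and -98 to -93. Of the 43 G2 and M genes with a RefSeq promoter, 33 held CCAAT (76.7%), against 39.4% of the 14452 measured genes with one, and 18 held TTTGAA (41.9%), against 14.1%. Both stood in 17 promoters (39.5%), against 5.09%. Among all 2420 genes called lower that had a promoter, 41.9% held CCAAT and 14.3% held TTTGAA. These counts describe letters in the window and not binding.

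S-phase genes were also lower. Of 40 measured, 31 fell (77.5%, against 16.3% of all genes) and 0 rose (1 at an unadjusted limma p under 0.05). At least 2-fold falls numbered 3, and the median difference was -0.51. Mcm5, a subunit of the replicative helicase, read 8.33, 8.06 and 7.47 in batch 2 and 9.26, 9.50 and 9.64 in batch 1 (2.86-fold lower, -1.52 ± 0.19 SE, limma adjusted p = 0.000218). Every batch 2 array lay below every batch 1 array, which was a condition of its naming among the largest falls. Rrm2, the regulated subunit of ribonucleotide reductase, read 8.49, 8.44 and 7.91 in batch 2 and 9.40, 9.45 and 9.59 in batch 1, a difference of -1.20. Uhrf1, which carries DNA methylation through replication, and Pola1, the catalytic subunit of polymerase alpha, fell by 1.05 and 0.98. Mcm2 read 9.15, 9.07 and 8.71 in batch 2 and 9.67, 9.77 and 9.86 in batch 1 (-0.79). Pcna, the sliding clamp of replication, changed least of these, with 11.634, 11.624 and 11.552 in batch 2 and 11.862, 12.001 and 12.036 in batch 1 (-0.36 ± 0.06 SE). Batch 2 replicate 3 was lowest of its group in 27 of the 40 (67.5%, against 40.9% of all genes), and without it 31 were called lower.

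Genes that restrain the cycle did not move as 1 group. Of 25 measured CDK inhibitors and growth-arrest genes, 9 rose (36%, against 10.8% of all genes) and 8 fell (32%, against 16.3%). Cdkn1a, which encodes the CDK inhibitor p21, read 12.04, 12.14 and 12.12 in batch 2 and 11.84, 11.72 and 11.74 in batch 1, a rise of 1.26-fold (0.34 ± 0.06 SE, limma adjusted p = 0.00138). Its other probe set differed by 0.17 and was not called (limma adjusted p = 0.121 over all probe sets). Btg2, an antiproliferative gene, and Gadd45b, a stress sensor, rose by 0.73 and 0.50, but each had another bright probe set that was not called. The second Btg2 probe set, at 8.43 in batch 2 and 8.47 in batch 1, differed by -0.05 (limma adjusted p = 0.770 over all probe sets). Of the other Gadd45b probe sets 1 was called higher at 0.39 and 1 was not called at 0.12. Cdkn2a, the locus of p16 and p19ARF that accumulates with passage in MEFs, read 9.45, 9.36 and 9.29 in batch 2 and 9.35, 9.23 and 8.97 in batch 1, with overlapping groups (0.18 ± 0.14 SE, limma adjusted p = 0.384). Cdkn2c, encoding p18, and Rbl1, encoding the pocket protein p107, fell by 0.46 and 0.94. Targets of p53 were called in both directions: besides Cdkn1a and Btg2, Sesn2 and Phlda3 rose by 0.35 and 0.21, while Ccng1, Mdm2, Zmat3 and Trp53inp1 had differences of -0.41, -0.38, -0.33 and -0.35 and were called lower. These 6 were named after their values were seen.

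**Figure D1:**
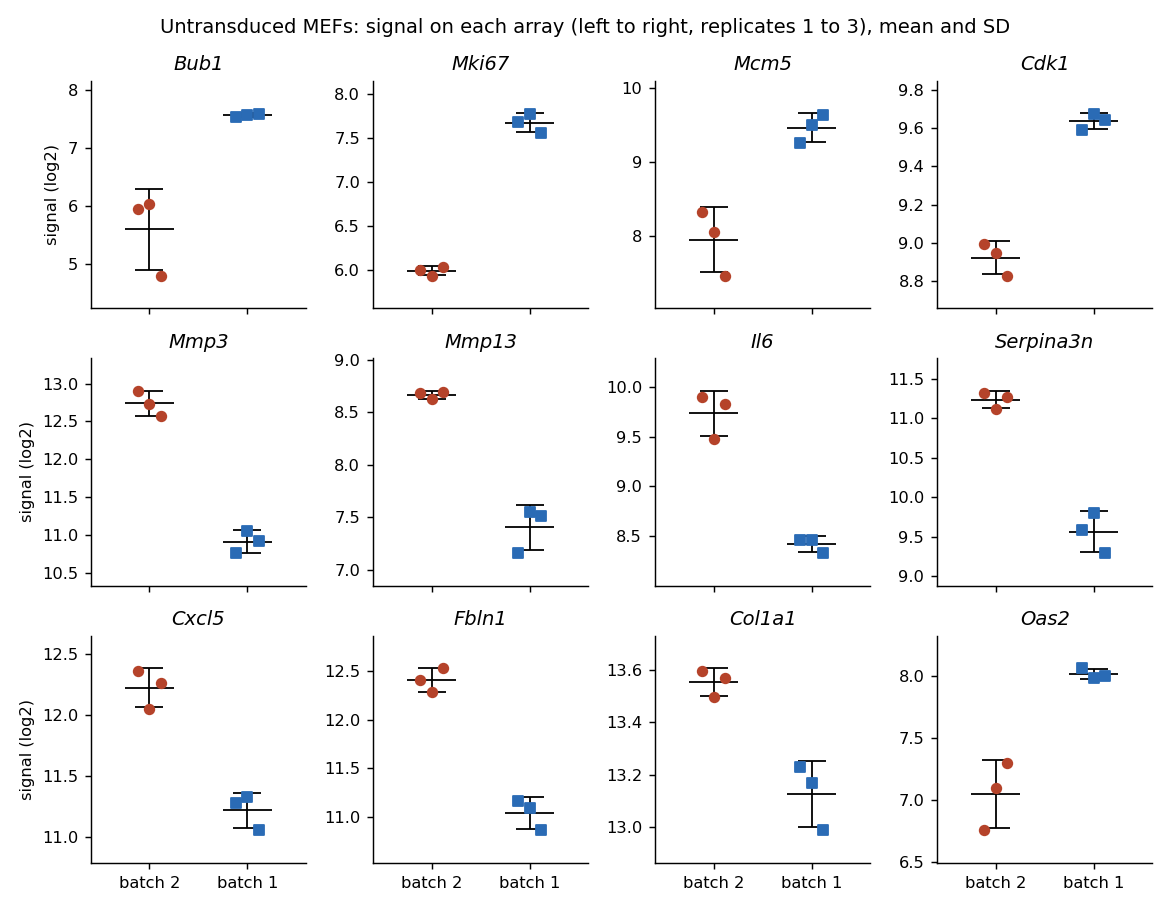
Signal (log2) of 12 genes on each array of untransduced MEFs, batch 2 (circles) left of batch 1 (squares), replicates 1 to 3 from left to right, with the mean and SD of 3 arrays. Bub1 and Mcm5 were lower and more spread in batch 2 than in batch 1, Mki67 was lower and tight, and Mmp3, Il6, Serpina3n and Fbln1 were higher in batch 2 on all 3 arrays.

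Matrix genes were mostly higher where they were called: 45 of 135 measured rose (33.3%, against 10.8% of all genes) and 16 fell (11.9%, against 16.3%). The metalloproteases led. Of 25 measured metalloproteases, their activators and inhibitors, 14 rose (56%), 4 of them at least 2-fold, and 2 fell, with a median difference of 0.26. Without batch 2 replicate 3, 14 also rose.

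Mmp3, or stromelysin 1, which cuts proteoglycans and activates other proenzymes, read 12.90, 12.74 and 12.58 in batch 2, against 10.76, 11.06 and 10.92 in batch 1. The lowest batch 2 array stood more than 1 log2 unit above the highest batch 1 array (3.54-fold higher, limma adjusted p = 1.49e-05). Mmp10, the related stromelysin 2, read 9.03, 8.89 and 8.56 in batch 2 and 6.95, 7.40 and 7.60 in batch 1 (1.51 ± 0.16 SE, limma adjusted p = 8.17e-05). Mmp13, the main collagenase of mouse fibroblasts, read 8.69, 8.62 and 8.69 in batch 2 and 7.16, 7.55 and 7.51 in batch 1 (1.26 ± 0.13 SE). Adamts4, an aggrecanase, read 9.04, 8.95 and 9.19 in batch 2 and 8.16, 8.01 and 7.86 in batch 1 (1.05 ± 0.08 SE). In none of these 4 did the groups overlap, which was so for 39.9% of all genes. For Mmp3 and Mmp10 it was a condition of their naming among the largest rises. Timp1, an inhibitor of metalloproteases, rose as well. It read 12.48, 12.42 and 12.57 in batch 2 and 11.62, 11.79 and 11.66 in batch 1 (1.74-fold, 0.80 ± 0.06 SE, limma adjusted p = 1.75e-05). Of its relatives, Timp2 was called higher at 0.25, while Timp3 and Timp4 were not called, at -0.095 and -0.004. These relatives were named after their values were seen. Adamts1 and Adamts5, both aggrecanases of the same family as Adamts4, were the 2 that fell, by 0.61 and 0.59, and were named after their values were seen.

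The window upstream of Mmp3 is shown because this gene is the largest protease rise and its promoter holds an AP-1 site, TGANTCA, in capitals. It is chr9:7445572-7445821 of GRCm38.p6 (plus strand, RefSeq).
Mmp3: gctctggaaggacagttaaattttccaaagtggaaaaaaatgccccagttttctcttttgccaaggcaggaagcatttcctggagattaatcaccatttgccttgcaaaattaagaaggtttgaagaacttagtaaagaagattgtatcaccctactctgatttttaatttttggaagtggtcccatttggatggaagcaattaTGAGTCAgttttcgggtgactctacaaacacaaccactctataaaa
The match, TGAGTCA, lies at bases -46 to -40 from the gene start. Searched on both strands, TGANTCA stood in 4 of the 17 promoters of the protease list (23.5%), against 6.7% of all measured genes, and all 4 belonged to genes that rose, of which 9 had a promoter sequence. Among all genes called higher it stood in 6.06%. In the list of immediate early genes, which moved both ways, the AP-1 subunits Junb and Jun rose in batch 2 and Atf3 fell. AP-1 subunits were not counted as a group. Junb read 10.26, 10.45 and 10.40 in batch 2 and 9.38, 9.37 and 8.97 in batch 1. Jun read 11.37, 11.36 and 11.22 in batch 2 and 10.23, 10.39 and 10.44 in batch 1. Their differences were 1.13 and 0.96, both with no overlap of the groups. The second Jun probe set, at 10.06 in batch 2 and 9.86 in batch 1, differed by 0.20 and was not called (limma adjusted p = 0.0514 over all probe sets). Of the 20 immediate early genes 9 rose (45%, against 10.8% of all genes) and 5 fell (25%, against 16.3%), with Atf3 at -1.01. Without batch 2 replicate 3 or without batch 1 replicate 3, 3 fell. The part of AP-1 in the protease rises was not tested.

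Most collagen chains, like most genes, were not called. Of 31 measured, 6 rose (19.4%, against 10.8% of all genes) and 3 fell (9.68%, against 16.3%). The other 22 were not called, and the median difference was 0.06. Col12a1, a fibril-associated collagen, rose by 0.45, and Col6a2, of the microfibrillar collagen VI, by 0.34. Col1a1, the main chain of type I collagen, read 13.59, 13.49 and 13.57 in batch 2 and 13.23, 13.17 and 12.99 in batch 1 (0.43 ± 0.10 SE, limma adjusted p = 0.00663). Its second, dimmer probe set ran the other way, at 9.04 in batch 2 and 9.47 in batch 1 (-0.44, limma adjusted p = 0.136 over all probe sets), so the direction of Col1a1 rests on the probe set used. Col3a1 read 13.84, 13.80 and 13.87 in batch 2 and 13.68, 13.68 and 13.40 in batch 1 (0.25, limma adjusted p = 0.0400), a call lost without any 1 of 4 arrays (adjusted p up to 0.139, without batch 1 replicate 3). The basement membrane chain Col4a5 fell by 0.55. Without batch 1 replicate 3, 3 of the 31 chains were called higher.

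Among enzymes and helpers that modify collagen, 8 of 17 measured rose (47.1%, against 10.8% of all genes) and 2 fell (11.8%, against 16.3%). The cross-linking oxidases Loxl3 and Loxl1 rose by 0.48 and 0.44, and the prolyl hydroxylase subunit P4ha3 by 0.41. Loxl1 read 12.57, 12.53 and 12.58 in batch 2 and 12.12, 12.15 and 12.09 in batch 1, a small but tight difference with no overlap. Pcolce2, an enhancer of procollagen C-proteinase, fell by 0.51 (limma adjusted p = 0.0211, and 0.0512 without batch 1 replicate 1 or 0.0763 without batch 1 replicate 3).

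Small leucine-rich proteoglycans, which organise collagen fibrils, included 4 that rose of 13 measured (30.8%, against 10.8% of all genes). Of the 13, 0 fell, against 16.3% of all genes (0 also at an unadjusted limma p under 0.05). Prelp read 7.61, 7.56 and 7.71 in batch 2 and 6.80, 6.87 and 6.66 in batch 1 (0.85 ± 0.08 SE), and Podn rose by 0.77. Kera, or keratocan, had the largest difference of this class, 1.39, but at low signal, with 5.97, 6.47 and 6.13 in batch 2 and 5.24, 4.68 and 4.46 in batch 1. Aspn was called at 0.20 (limma adjusted p = 0.0490), a call lost without any 1 of 4 arrays (adjusted p up to 0.158, without batch 1 replicate 3) and with the replicate number as a block (0.0703). Its other bright probe set, at 0.26, was not called (limma adjusted p = 0.0970 over all probe sets).

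Elastic fibre and microfibril genes split, with 4 rising and 4 falling of 15 measured (26.7% each, against 10.8% and 16.3% of all genes). Fbln1, which binds fibronectin and elastic fibres, read 12.41, 12.29 and 12.53 in batch 2 and 11.17, 11.10 and 10.86 in batch 1 (2.57-fold higher, 1.36 ± 0.10 SE, limma adjusted p = 1.21e-05). Mfap4, a microfibril-associated glycoprotein, read 11.84, 11.80 and 12.01 in batch 2 and 10.91, 10.89 and 10.47 in batch 1 (1.12 ± 0.11 SE). In the other direction, Efemp1, also called fibulin 3, read 9.85, 9.76 and 9.78 in batch 2 and 10.74, 10.72 and 10.78 in batch 1 (-0.95 ± 0.06 SE, limma adjusted p = 8.72e-06). Ltbp1, which stores latent TGF-beta in the matrix, fell by 0.68. Thus 2 fibulin relatives, Fbln1 and Efemp1, moved in opposite directions, each with no overlap of the groups. For Fbln1 this was a condition of its naming among the largest rises.

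Of 34 adhesive and matricellular glycoproteins, 9 rose (26.5%, against 10.8% of all genes) and 5 fell (14.7%, against 16.3%), or 3 without batch 1 replicate 2. Of the CCN family of matricellular proteins, Ccn3 rose by 0.59 and Ccn4 by 0.55 (its other probe set differed by 0.14 and was not called), while Ccn2, a target of YAP and TGF-beta, fell by 0.64, with 9.96, 10.19 and 9.95 in batch 2 and 10.59, 10.64 and 10.78 in batch 1. Matn2, a filament-forming matrilin, rose by 0.58. Fn1, fibronectin, read 13.87, 13.80 and 13.83 in batch 2 and 13.92, 13.92 and 13.88 in batch 1 (-0.07 ± 0.06 SE, limma adjusted p = 0.450). A second, dimmer Fn1 probe set was called lower (-0.39, limma adjusted p = 0.00984 over all probe sets).

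**Figure D2:**
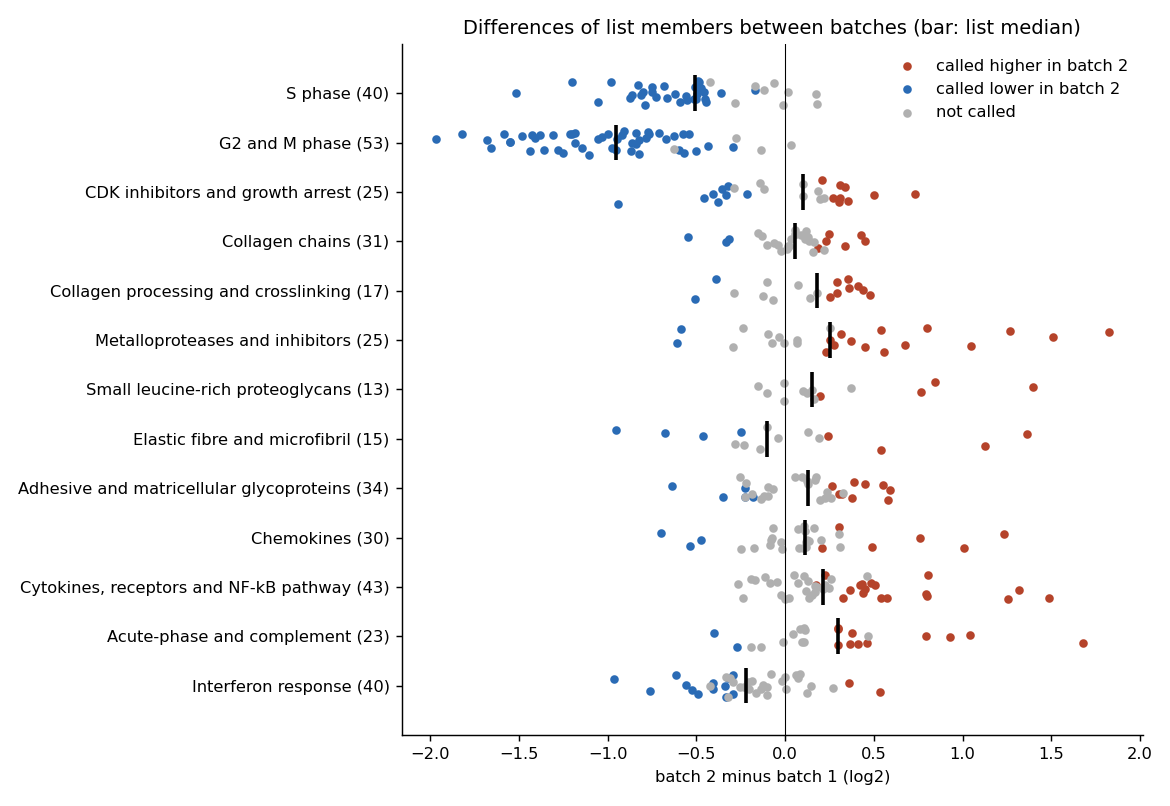
Batch 2 minus batch 1 difference (log2, x axis) of each measured member of the lists for proliferation, matrix and inflammation, with the number measured in brackets. Red points were called higher in batch 2, blue points lower and grey points not called, and the black bar is the list's median. The G2 and M list lies almost wholly below 0 with a median of -0.96, whereas the protease, cytokine and acute-phase lists have medians of 0.26, 0.21 and 0.30 with a tail above 1.

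Inflammatory genes split by class. Over the chemokine, cytokine, acute-phase and interferon lists together, 37 of 136 measured rose (27.2%, against 10.8% of all genes). Another 18 fell (13.2%, against 16.3%), and the lists differed. Of 43 cytokines, receptors and NF-kB pathway genes, 18 rose (41.9%) and 0 fell (2 at an unadjusted limma p under 0.05), with a median of 0.21. Il6, the main inflammatory cytokine of fibroblasts, read 9.90, 9.48 and 9.83 in batch 2 and 8.46, 8.46 and 8.33 in batch 1 (2.49-fold higher, 1.32 ± 0.10 SE, limma adjusted p = 1.41e-05). All 3 batch 2 arrays lay about 1 log2 unit or more above batch 1. Csf3, encoding G-CSF, the growth factor of neutrophils, read 8.07, 8.01 and 7.46 in batch 2 and 6.61, 6.33 and 6.83 in batch 1 (1.26 ± 0.21 SE). The receptor chains Il13ra1 and Il4ra, which together bind interleukins 4 and 13, rose by 1.49 and 0.81. Il13ra1 read 8.61, 8.38 and 8.66 in batch 2 and 7.10, 7.04 and 7.06 in batch 1, and 3 of its 4 other probe sets, at 1.30, 1.22 and 0.95, were also called higher. Without batch 2 replicate 3, 16 of the 43 rose. Among the list's members that were not called were Il1a, Il1b, Tnf, Ptgs2 and Nfkbia, named after their values were seen, at -0.26, 0.12, 0.18, -0.24 and -0.02.

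The window upstream of Il6 is shown because it holds matches for both AP-1 and NF-kB, TGANTCA and GGG followed by any 2 bases and TTTCC, in capitals. It is chr5:30012864-30013113 of GRCm38.p6 (plus strand, RefSeq).
Il6: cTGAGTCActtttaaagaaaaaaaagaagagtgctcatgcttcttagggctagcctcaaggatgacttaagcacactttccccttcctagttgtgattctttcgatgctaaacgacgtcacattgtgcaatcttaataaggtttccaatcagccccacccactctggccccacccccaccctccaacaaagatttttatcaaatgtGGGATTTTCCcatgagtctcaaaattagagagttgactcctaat
TGAGTCA lies at bases -249 to -243 and GGGATTTTCC at -44 to -35 from the gene start. The NF-kB motif, searched on both strands, stood in 8 of the 35 cytokine and NF-kB genes with a promoter (22.9%), against 1.69% of all measured genes. Among the members that rose it stood in 2 of 16 (12.5%), so most members that hold it were not called.

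Of 30 chemokines, 6 rose (20%, against 10.8% of all genes) and 3 fell (10%, against 16.3%). Ccl8, a monocyte attractant, read 11.47, 11.15 and 11.53 in batch 2 and 10.25, 10.25 and 9.94 in batch 1 (2.35-fold higher, 1.23 ± 0.11 SE, limma adjusted p = 3.54e-05). Cxcl5, a neutrophil attractant, read 12.36, 12.05 and 12.27 in batch 2 and 11.28, 11.33 and 11.05 in batch 1 (1.01 ± 0.10 SE). Ccl11, or eotaxin, rose by 0.76, and neither it nor the other 2 had overlapping groups. Ccl2, the most studied monocyte attractant, was bright in both batches, with 13.70, 13.61 and 13.62 in batch 2 and 13.41, 13.44 and 13.46 in batch 1 (0.21 ± 0.05 SE, limma adjusted p = 0.0155, and 0.0532 without batch 1 replicate 1). Cxcl1 read 10.64, 10.64 and 10.68 in batch 2 and 10.56, 10.56 and 10.48 in batch 1 (0.12 ± 0.08 SE, limma adjusted p = 0.305). A brighter Cxcl1 probe set, at 13.08 in batch 2 and 12.80 in batch 1, was called higher (0.28, limma adjusted p = 0.00355 over all probe sets), and another, at 0.14, was not called. Ccl20 fell by 0.70, with 7.39, 7.52 and 7.30 in batch 2 and 7.91, 8.25 and 8.15 in batch 1.

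Of 23 measured acute-phase and complement genes, 11 rose (47.8%, against 10.8% of all genes) and 2 fell (8.7%, against 16.3%), with a median of 0.30. Serpina3n, a secreted inhibitor of serine proteases induced in inflammation, read 11.33, 11.12 and 11.28 in batch 2 and 9.59, 9.81 and 9.29 in batch 1 (3.20-fold higher, 1.68 ± 0.12 SE, limma adjusted p = 1.27e-05). Lcn2, lipocalin 2, which binds bacterial siderophores, read 11.50, 11.50 and 11.79 in batch 2 and 10.44, 10.95 and 10.28 in batch 1 (1.04 ± 0.16 SE, limma adjusted p = 0.000895). Batch 1 was more spread than batch 2 for both genes, and the groups did not overlap, which for Serpina3n was a condition of its naming among the largest rises. Steap4, a metalloreductase induced by inflammatory cytokines, and Hp, haptoglobin, rose by 0.93 and 0.79. The other Steap4 probe set, slightly brighter on these arrays at 11.03 in batch 2 and 10.70 in batch 1, gave a difference of 0.33 (limma adjusted p = 0.0420 over all probe sets). Saa3, the serum amyloid made outside the liver in mice, read 14.45, 14.37 and 14.49 in batch 2 and 14.11, 14.11 and 13.99 in batch 1 (0.37 ± 0.06 SE), near the top of the array's range in both. Without batch 2 replicate 3, 8 of the 23 rose.

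Interferon-response genes fell more than they rose. Of 40 measured, 13 fell (32.5%, against 16.3% of all genes), 2 rose, Irf1 and Stat2 at 0.36 and 0.53, and the median was -0.22. None differed 2-fold. Oas2 and Oas1a, synthetases that sense double-stranded RNA, fell by 0.96 and 0.76, with Oas2 at 6.76, 7.09 and 7.30 in batch 2 and 8.06, 7.98 and 7.99 in batch 1 (limma adjusted p = 0.000312). Ifih1, the RNA sensor MDA5, read 8.81, 8.66 and 8.51 in batch 2 and 9.31, 9.24 and 9.28 in batch 1 (-0.62). Ifit1, a strongly interferon-induced gene, read 11.35, 11.06 and 11.09 in batch 2 and 11.28, 11.07 and 11.13 in batch 1 (0.00 ± 0.14 SE, limma adjusted p = 0.985). The lower calls therefore did not extend over the whole list. Batch 2 replicate 3 was lowest of its group in 24 of the 40 (60.0%, against 40.9% of all genes), and without it 10 fell.

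**Figure D3:**
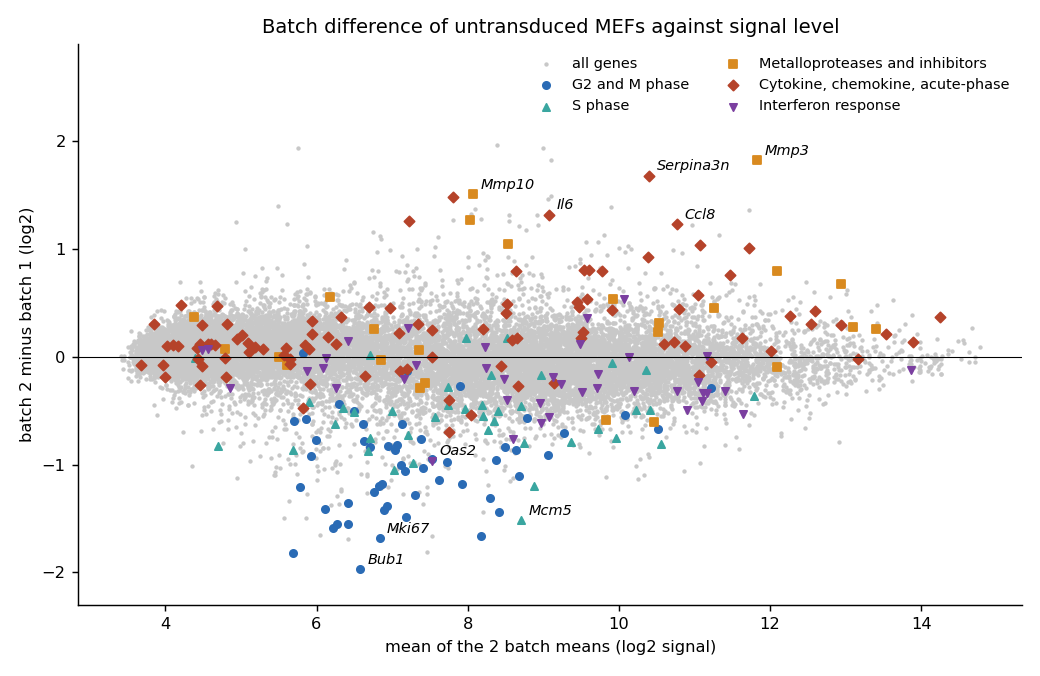
Batch 2 minus batch 1 difference (log2, y axis) of all 18193 genes against the mean of the batch means (log2 signal, x axis), with members of 5 groups of lists marked. G2 and M genes (circles) reach -1.97, while Mmp3, Serpina3n, Il6 and Ccl8 stand above 1 at signals above 9.

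The largest rises outside these lists were Wfdc17, a secreted protein of activated macrophages and microglia in mice, and Max, the partner of MYC proteins. Wfdc17 read 9.34, 9.34 and 9.42 in batch 2 and 7.34, 7.47 and 7.38 in batch 1 (3.91-fold, limma adjusted p = 2.16e-06), and Max 10.05, 9.94 and 9.89 in batch 2 and 8.02, 8.07 and 8.00 in batch 1 (3.82-fold, limma adjusted p = 8.72e-06). Each was measured by 1 probe set only. Avpr1a, a vasopressin receptor, and Cdo1, cysteine dioxygenase, rose by 1.83 and 1.39. Pdia4, a disulfide isomerase of the endoplasmic reticulum, rose by 1.49 on its bright probe set, while its other probe set was dim and differed by 0.05. Snai1, a repressor of epithelial genes, read 8.74, 8.72 and 8.90 in batch 2 and 7.49, 7.43 and 7.31 in batch 1 (1.37), and Ier5l rose by 1.47. The largest falls outside the cell cycle were Alcam, an adhesion molecule, and Megf10, a receptor for engulfment that also occurs in muscle precursors. Alcam read 6.56, 6.51 and 6.62 in batch 2 and 8.49, 8.29 and 8.33 in batch 1 (3.50-fold lower, limma adjusted p = 7.05e-07), and 3 of its 4 other probe sets were also called lower, at -1.79, -1.75 and -2.14. Megf10 fell by 1.59, with 6.76, 6.59 and 5.41 in batch 2 and 7.81, 7.85 and 7.89 in batch 1.

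The transduced MEFs of the same batches give a second view of these genes, without a test, since they differ from each other in virus, factor and medium as well as in batch. Relative to the mean of the untransduced batch 1 arrays, the median of the G2 and M list was -0.83, -0.91 and -1.10 on the untransduced batch 2 arrays. It was -1.33, -1.31 and -1.42 on the NeuroD2 arrays of batch 2 and 0.40, 0.42 and 0.49 on the MyoD arrays of batch 1. All MEF arrays of batch 2, transduced or not, lay below all MEF arrays of batch 1. The 3' minus 5' difference of pyruvate carboxylase also separated the batches, at 1.05 to 1.17 on the NeuroD2 arrays of batch 2 and 2.04 to 2.27 on the MyoD arrays of batch 1, and its part in the result was not tested. Bub1 averaged 5.49 ± 0.13 in NeuroD2 MEFs of batch 2 and 8.15 ± 0.05 in MyoD MEFs of batch 1, and Mki67 5.80 ± 0.43 and 8.45 ± 0.13 (SD, n = 3 each). Both were far brighter in untransduced P19 cells of batch 3, at 11.76 ± 0.07 and 10.65 ± 0.11 (SD, n = 3).

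The protease and inflammatory genes that rose in untransduced batch 2 were mixed in the NeuroD2 MEFs of that batch. The median of the protease list was 0.36, 0.22 and 0.26 on the untransduced batch 2 arrays and -0.08, -0.03 and -0.24 on the NeuroD2 arrays of batch 2. Of 18 such genes named above, all 3 NeuroD2 arrays lay above all 3 untransduced batch 1 arrays for 7 (Serpina3n, Timp1, Il6, Saa3, Adamts4, Il4ra and Steap4) and below them for 11. The share of all genes without overlap between these groups was not computed. The 18 were also chosen as called higher against the same batch 1 arrays, so the split only describes them. Among the 11, Mmp3 averaged 4.65 ± 0.26 in NeuroD2 MEFs and 6.36 ± 0.17 in MyoD MEFs, and Cxcl5 6.26 ± 0.03 and 5.60 ± 0.13 (SD, n = 3 each), all far below both untransduced groups. Among the 7, Il6 averaged 9.85 ± 0.05 in NeuroD2 MEFs and 7.64 ± 0.07 in MyoD MEFs, and Steap4 13.28 ± 0.09 and 7.71 ± 0.33 (SD, n = 3 each). The interferon list had medians of -0.17, -0.22 and -0.37 on the untransduced batch 2 arrays, -0.25, -0.27 and -0.47 on the NeuroD2 arrays and -1.69, -1.85 and -1.78 on the MyoD arrays.

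**Figure D4:**
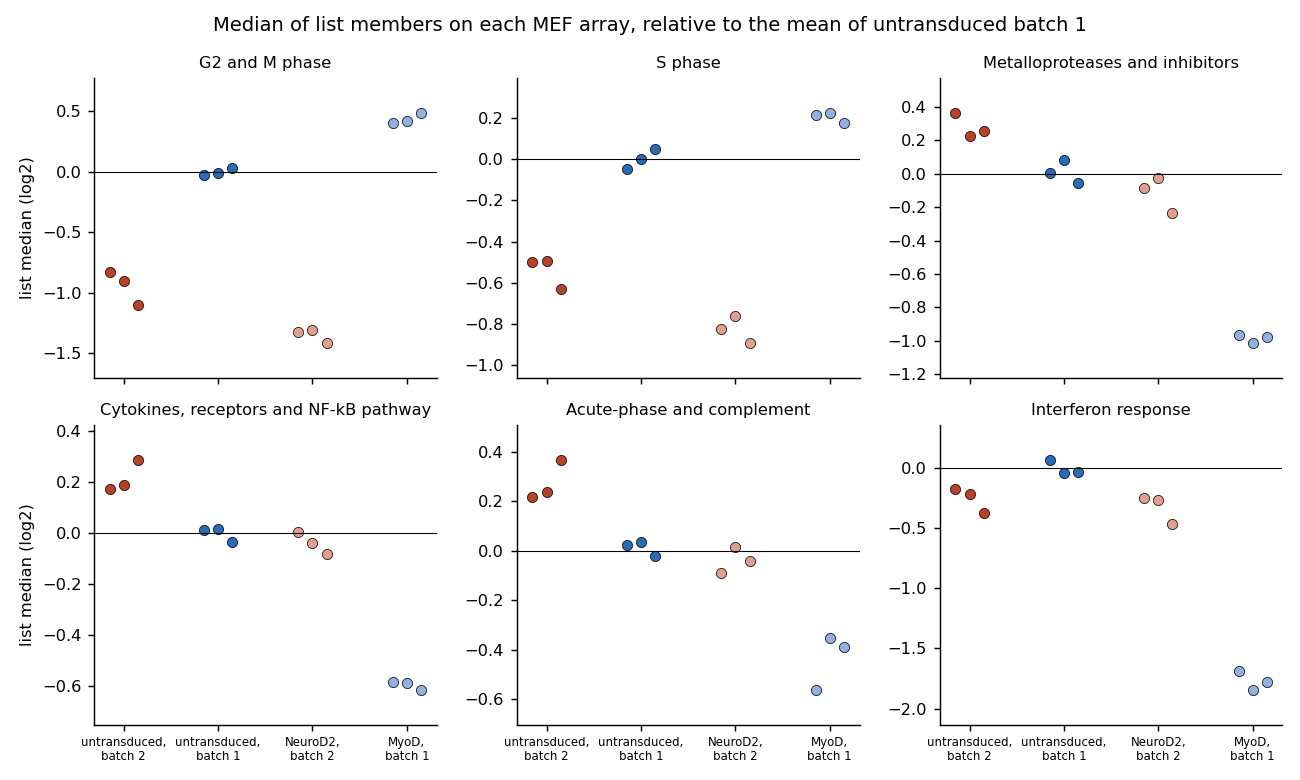
Median of list members on each of the 12 MEF arrays (log2, y axis), relative to the mean of the untransduced batch 1 arrays, for 6 lists in 4 groups of 3 arrays. The G2 and M and S-phase lists are low on all batch 2 arrays, untransduced and NeuroD2, while the protease, cytokine and acute-phase lists are above 0 on the untransduced batch 2 arrays and near or below 0 on the NeuroD2 and MyoD arrays.

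Both batches carried the marks of fibroblasts. Pdgfra, the receptor that marks mesenchymal fibroblasts, read 13.21, 13.23 and 13.25 in batch 2 and 13.30, 13.26 and 13.22 in batch 1 (-0.03 ± 0.06 SE, limma adjusted p = 0.756). A dimmer Pdgfra probe set, at 11.82 in batch 2 and 11.44 in batch 1, was called higher (0.39, limma adjusted p = 0.000979 over all probe sets), and another, at 0.04, was not called. Thy1 read 12.22, 12.15 and 12.10 in batch 2 and 11.94, 12.04 and 12.01 in batch 1 (0.16 ± 0.06 SE, limma adjusted p = 0.0513, and 0.0430 without batch 2 replicate 3). Of 19 fibroblast identity genes, 5 rose (26.3%, against 10.8% of all genes) and 4 fell (21.1%, against 16.3%). Dpt, a dermal matrix protein, rose by 0.58, while Ddr2, a collagen receptor, and the progenitor marker Cd34 fell by 0.51 and 0.47. Acta2, smooth muscle actin of myofibroblasts, read 13.13, 13.03 and 13.19 in batch 2 and 13.44, 13.37 and 13.49 in batch 1 (-0.32 ± 0.06 SE, limma adjusted p = 0.00204). This call was lost in 4 of 16 alternative ways of processing, over which the difference ran from -0.38 to -0.15. The other Acta2 probe sets were dim and not called, at -0.15 and 0.03.

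Few markers of other cell types were called, against 27.0% of all genes. Most of the markers lay below the median signal, where differences can be understated, so the few calls say little about cell composition. Of 14 blood and macrophage markers, 0 had a mean above the median signal of 7.03 in either batch, and their summed signal on the linear scale was 629 to 696 on the batch 2 arrays and 650 to 671 on the batch 1 arrays. Among them, 0 were called higher (2 at an unadjusted limma p under 0.05) and Cd53 was called lower (-0.63). Of 13 epithelial markers 0 were above that signal and 0 were called (2 at an unadjusted limma p under 0.05), with sums of 506 to 692 in batch 2 and 524 to 535 in batch 1. The endothelial list had 1 call of 14 (Tek, -0.35), the neuronal and glial list 2 of 14 (Map2 at -0.80 and Snap25 at -0.23), and the adipocyte list 2 of 11 (Cd36 at 0.37 and Cebpa at 0.33). Most of the adipocyte list was dim too: 2 of its 11 members were above the median signal, and Cd36 and Cebpa were below it. The median level of its members was 5.18 in batch 2 and 5.10 in batch 1. Its summed signal was high, at 9769 to 10250 in batch 2 and 9398 to 9683 in batch 1. That sum includes the bright Lpl, lipoprotein lipase, at 13.23 and 13.15 and not called (named after its values were seen). The endothelial list, with 2 of 14 above it, summed to 801 to 975 in batch 2 and 834 to 906 in batch 1. Of these 6 calls only that of Map2 held without each array in turn, the others reaching limma adjusted p-values of 0.0702 (Cd53), 0.109 (Tek), 0.151 (Snap25), 0.0972 (Cd36) and 0.0658 (Cebpa). The skeletal muscle list of 16 and the cartilage and bone list of 13 had 0 calls (2 each at an unadjusted limma p under 0.05). Arrays give no detection calls here, so a dim value is not an absence.

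The 2 genes named in the genotype were measured in both batches. Myod1 read 7.16, 7.21 and 7.29 in batch 2 and 7.21, 7.18 and 7.14 in batch 1 (0.04 ± 0.06 SE, limma adjusted p = 0.676). Myf5 read 9.60, 9.33 and 9.38 in batch 2 and 9.93, 10.15 and 10.12 in batch 1 (-0.63 ± 0.12 SE, limma adjusted p = 0.00309), so a signal was present in both. The labels do not say where its probes lie relative to the disrupted part, and a probe set outside that part checks nothing. Xist was dim in both batches, at 5.25, 5.41 and 5.14 in batch 2 and 5.16, 5.19 and 5.21 in batch 1, and the Y-linked Eif2s3y read 9.84, 9.82 and 9.69 in batch 2 and 9.93, 9.92 and 9.87 in batch 1. Neither was called, and 0 of the 5 measured sex-linked transcripts were (2 at an unadjusted limma p under 0.05, Uty and Kdm5d, at -0.30 and -0.28).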

How the data were processed

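The authors deposited log2 signal intensities of Affymetrix mouse arrays hybridized with biotin-labelled cRNA, 1 array per sample, in a single table whose arrays were already normalized against each other. Per the submitters' processing notes the tool was limma. How background was corrected and arrays were normalized is not stated in these sources. No detection calls were used. Groups, batches and replicate numbers came from the titles.

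Of 45101 probe sets, 64 were controls, 9160 had no gene symbol and 932 had several, and these were left out. The other 34945 gave 18193 genes, each read from whichever of its probe sets was brightest on average over all 24 arrays, P19 included, which need not be the brightest in MEFs (Cxcl1, Col12a1, Ddr2, Il13ra1, Prelp and Steap4 had a brighter one). Low signals are compressed toward background, so differences of dim genes can be understated. Group means were fitted with limma 3.58.1 in R 4.3.3 over the 12 MEF arrays (8 residual and 3.28 prior degrees of freedom), batch 2 minus batch 1, two-sided, with Benjamini-Hochberg adjustment over all genes and a threshold of 0.05. P19 arrays were left out because 1 of them, control replicate 2 of batch 1 (upper quartile 7.95), widens a shared spread. Tested on simulated data with this comparison's 18193 genes, the fit recovered 81% of 100 genes changed by 0.5 and 100% of 100 changed by 1 (log2), and 3.72% of calls were false. The simulated noise was normal, independent between arrays and of equal spread in all groups, and no other genes changed. The real groups differed in spread (median SD 0.108 in batch 2 and 0.0736 in batch 1 controls) and held an array that stood apart. These rates therefore need not hold for the real comparison. Precision is limited by the number of arrays.

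The members, gene lists (758 entries, 701 measured) and tests were chosen with earlier results of these data known. The text names Bub1, Mki67 and Mmp3; the 12 largest called rises and 12 falls with groups that do not overlap, a group mean above 7.03 and a symbol that is no clone or predicted gene; up to 4 called members of each list with the largest difference; and a fixed set of genes whatever their values. Any other gene is said to have been named after its values were seen, as are Irf1, Stat2, Eif2s3y, Uty and Kdm5d here. Of the 125 named genes 117 were called, and 57 of these had further probe sets, 92 in number: 44 were called the same way, 0 the other way and 48 not. Where a further probe set with a mean above 7.03 differed in its call, the text gives it. Promoters are RefSeq's 250 bases upstream of the gene start (14452 genes matched by symbol). Alternatives changed the normalization, the genes and probe sets kept, the arrays in the fit, the threshold and a replicate block, left out each array, and, chosen after seeing the data, weighted the arrays.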

Additional observations from a re-analysis of the deposited data

How the results depend on the processing

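The counts depended on the fold threshold and on which arrays shared the estimate of spread. With the 6 untransduced arrays alone, 1242 genes were called higher and 1912 lower in batch 2. With all 24 arrays 211 were higher and 204 lower (proliferation 2 and 49, matrix 11 and 1, inflammation 12 and 5), and with 23 arrays, without P19 control replicate 2 of batch 1, 1228 and 1742 (proliferation 3 higher, matrix 27 and 9), so that 1 array accounts for most of the loss. Asking for at least 2-fold left 47 and 85 (proliferation 0 and 27, matrix 7 and 0, inflammation 7 and 0). Leaving out 1 untransduced array at a time gave 1401 to 2310 higher and 2241 to 3113 lower genes, with proliferation at 6 to 11 and 79 to 88, matrix at 35 to 46 and 14 to 17, and inflammation at 32 to 38 and 15 to 17. By list, collagen chains called higher numbered 3, not 6, without batch 1 replicate 3. Adhesive glycoproteins called lower numbered 3, not 5, without batch 1 replicate 2. Array weights gave 2887 higher and 3665 lower. The other alternatives kept the counts over all genes and over the 3 classes within 1.5 times. In the fits of other arrays 0 genes were called opposite to the reported call. With the mean of its probe sets Col1a1 differed by -0.0051 (adjusted p = 0.981) and not by 0.43, and 54 genes were called in the opposite direction; without the probe sets of ambiguous match it was so for 32. Of the 125 named genes, 55 lost their call with all 24 arrays, 18 with 23 and 6 with the 6 arrays alone. Replicate numbers did not pair the arrays: deviations of same-numbered arrays correlated at 0.01, -0.05 and -0.04, and with the replicate block 1872 genes were higher and 2781 lower, and of the named genes Aspn and Snap25 (adjusted p = 0.0703 and 0.0587) lost their calls. No depth applies to arrays. Dim genes have little signal above background, which limits what their differences can show.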

Other observations

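Of 32 TGF-beta and BMP pathway genes, 14 rose in untransduced MEFs of batch 2 relative to batch 1 (43.8%, against 10.8% of all genes) and 0 fell (0 also at an unadjusted limma p under 0.05), with 9 called without batch 2 replicate 1, without batch 1 replicate 2 or without batch 1 replicate 3. Fits of the 6 untransduced arrays alone, of 23 arrays and of all 24 arrays called 8, 7 and 4 of them higher. Inhbb, the beta B subunit of activin and inhibin, read 9.76, 9.54 and 9.31 in batch 2 and 8.23, 8.38 and 8.34 in batch 1 (1.22 ± 0.12 SE, limma adjusted p = 7.48e-05). Tgfb3 and the BMP target Id1 rose by 0.64 and 0.56. In the insulin-like growth factor system 5 of 13 rose (38.5%, against 10.8% of all genes) and 4 fell (30.8%, against 16.3%). The binding proteins Igfbp3 and Igfbp4 rose by 1.28 and 0.96, with Igfbp3 at 8.76, 8.89 and 8.80 in batch 2 and 7.79, 7.58 and 7.24 in batch 1. The adaptors of the insulin and IGF receptors split: Irs1 read 11.12, 11.25 and 11.09 in batch 2 and 12.12, 12.04 and 11.88 in batch 1 (-0.86 ± 0.07 SE, limma adjusted p = 1.75e-05), while Irs2 rose by 0.60.

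Of 20 immediate early genes, 9 rose (45%, against 10.8% of all genes) and 5 fell (25%, against 16.3%). Only 3 fell without batch 2 replicate 3 or without batch 1 replicate 3. Besides Jun and Junb, Zfp36, which destabilises cytokine transcripts, rose by 0.73. Atf3, a stress-induced factor, read 6.58, 6.65 and 6.26 in batch 2 and 7.49, 7.42 and 7.59 in batch 1 (-1.01 ± 0.09 SE, limma adjusted p = 3.33e-05). Among 25 glycolysis and hypoxia genes 9 rose (36%, against 10.8% of all genes) and 3 fell (12%, against 16.3%). Adm, adrenomedullin, read 9.85, 9.94 and 10.03 in batch 2 and 10.82, 10.89 and 10.90 in batch 1 (-0.93), while Ddit4 and Pfkl rose by 0.69 and 0.63. Of 18 cholesterol synthesis genes 5 rose (27.8%, against 10.8% of all genes) and 2 fell (11.1%, against 16.3%). The rises were led by Dhcr7 (0.63) and Sc5d (0.52). Of the other Sc5d probe sets 1 was called at 0.52 and 1 was not called at 0.09. Of 22 genes of the unfolded protein and amino acid response 8 rose (36.4%, against 10.8% of all genes) and 5 fell (22.7%, against 16.3%). Among the rises were the chaperone partner Sdf2l1 at 0.80 and Cebpb at 0.69. The cystine transporter Slc7a11 fell, at -0.83.

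Positional factors, which record where in the embryo a fibroblast came from, had 5 rises and 4 falls among 43 (11.6% and 9.3%, against 10.8% and 16.3% of all genes), and 8 rises without batch 2 replicate 1. En1, a homeobox gene of ventral limb ectoderm and some dermal fibroblasts, read 9.07, 8.83 and 9.10 in batch 2 and 8.12, 8.19 and 7.91 in batch 1 (0.92 ± 0.09 SE, limma adjusted p = 6.75e-05). It was the largest difference of its list. Hoxb13 rose by 0.61 at low signal, Hoxb2 rose by 0.39 and Meis2 fell by 0.33 (another bright probe set, at -0.19, was not called). Among 20 smooth muscle or myofibroblast genes there were 3 rises and 4 falls (15% and 20%), near the shares of all genes, with Csrp1 at 0.56, Smtn at 0.39, Tpm2 at -0.40 and Itga8 at -0.66. Another bright Tpm2 probe set differed by -0.03 and was not called.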
